A study of Mus musculus with 18 samples.

Results

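Brown fat of fetal mice was compared between mothers fed a fish oil diet and mothers fed a control diet, in 6 of the 18 RNA sequencing samples of the study. The members are the 3 fetal fish oil and the 3 fetal control libraries, chosen by their titles, and they were fitted without the other 12. All animals were C57BL/6 mice, both diets were given through pregnancy and lactation, and the fat came from the interscapular depot. Fetal age, sex, the composition of the diets and whether a sample pooled several fetuses are not given in the labels. The remaining samples are brown fat of weaned offspring and of adult offspring fed a high fat diet after weaning. Synthesis of fatty acids, handling of iron and targets of glucocorticoids are left aside here as topics. The account covers the other functions of the tissue. Some genes of the lists left aside are still named under other functions. Among them, Pck1 and Rasd1 also stand among the glucocorticoid targets, and Elovl3 among the genes of fatty acid synthesis. Cebpb and Angptl4 also belong to the lists left aside, and these genes are examples rather than a full list.

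Brown adipocytes burn fatty acids and glucose to make heat. Their mitochondria carry the uncoupling protein Ucp1, which lets protons back across the inner membrane without making ATP, and noradrenaline raises both the release of fatty acids and the transcription of Ucp1 through cyclic AMP. The depot forms before birth from a precursor that also gives rise to skeletal muscle, and muscle lies directly beneath it between the shoulder blades.

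Levels are given as CPM, which are forward-strand counts divided by library totals adjusted by edgeR's trimmed mean method (TMM), always in the order of replicates 1, 2 and 3. CPM are not divided by gene length, so they compare libraries and not genes. The libraries held 9434710 to 16263663 counts, of which 47.33 to 51.81% came from mt-Rnr2, a mitochondrial ribosomal RNA, and 4176991 to 7460408 counts were left outside mitochondrial rRNA. Defining genes of brown adipocytes were present in every library, with Ucp1 at 1199 to 3021 CPM, Cidea at 667 to 810 CPM, Cox8b at 188 to 223 CPM and Adipoq at 163 to 205 CPM. Adrb3, the beta adrenergic receptor typical of mature fat, had 4 to 11 counts per library and Lep, the gene of leptin, 2 to 13, and neither had enough counts to be tested. Xist, the RNA of the inactive X chromosome, stood at 242, 419 and 2.49 CPM in control libraries and at 201, 7.98 and 177 CPM in fish oil libraries, while the Y-linked gene Ddx3y was at 43.8 to 125 CPM in all 6. Control library 3 and fish oil library 2 therefore stood apart in Xist, and the other 4 libraries held both transcripts. Nothing in the labels says that replicates came from separate animals, so p-values measure only the spread between these samples.

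Of 13331 genes tested, 604 passed an adjusted p of 0.05 in the quasi-likelihood test of edgeR with Benjamini-Hochberg adjustment, which is 4.53% of the genes tested. Of these, 253 (1.9% of the genes tested) rose and 351 (2.63%) fell with the fish oil diet of the mother. Most shifts were small: 39 genes rose and 52 fell at least 2-fold, and 336 changed by less than 1.5-fold. Control and fish oil libraries did not overlap for 593 of the 604, nor for 22.6% of all genes tested. When each library was left out in turn, 204 genes (1.53% of those tested) passed in all 6 of these fits, 71 higher and 133 lower. The balance of directions depends on the scaling: with total counts in place of TMM, 570 genes passed, 351 higher and 219 lower. The small spread of these libraries also matters, since 14 genes (0.0975% of 14366) passed when the variance was estimated over all 18 libraries of the study, 13 of them among the 604. Those with a gene name were Prodh, Hr, Zbtb20, Zfp395, Setd7, Aspg, Snx10, Grk3, Rasd1, Cnnm2 and Shprh; every other gene named here as risen or fallen missed the threshold in that fit. In what follows, adjusted p-values are those of edgeR, a gene said to rise or fall passed in all 6 leave-out fits unless a smaller number is given, and errors of log2 fold changes are standard errors (n = 3 libraries a group). Sizes of a rise or fall are log2 fold changes. Counts over a gene list are to be read against the 4.53% of all genes tested that passed (1.9% higher and 2.63% lower). Several lists lay near that share, such as collagens and matrix (2.74%), cell cycle (3.92%) and chromatin (6.45%).

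**Figure D1:**
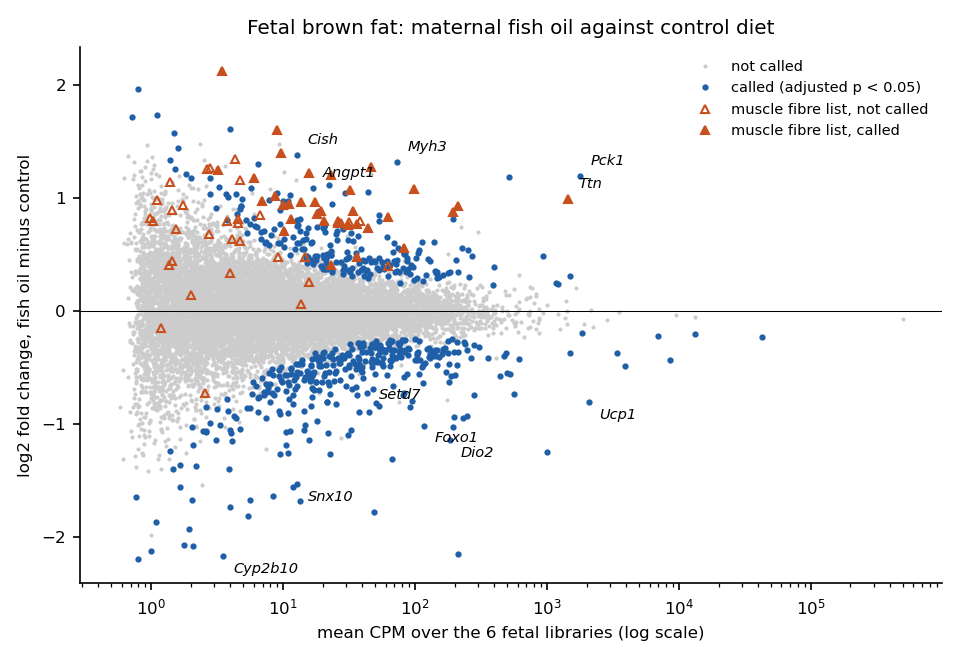
Log2 fold change of each tested gene (fish oil minus control, y axis) against its mean level over the 6 fetal libraries in CPM (x axis, log scale), with called genes in blue and the skeletal muscle fibre list as orange triangles, filled where called. All 34 filled triangles lie above 0, while named genes such as Snx10, Foxo1, Dio2 and Cyp2b10 lie on the lower side.

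Several of the clearest falls were in single genes of varied function. Foxo1, the forkhead factor that insulin signalling keeps out of the nucleus, was at 156, 156 and 159.9 CPM in control libraries and at 68.4, 88.1 and 76.9 CPM in fish oil libraries (log2 fold change -1.02 ± 0.0845, adjusted p = 1.49e-05). The control libraries lay close together and every fish oil library was far below them. Snx10, a sorting nexin of endosomes, went from 21.8, 20.3 and 15.3 CPM in the control libraries to 6.11, 6.85 and 6.88 CPM in the fish oil libraries (log2 fold change -1.54 ± 0.146, adjusted p = 7.04e-05), and Setd7, a lysine methyltransferase, from 59.7, 58.5 and 56.6 CPM in the control libraries to 27.9, 31.2 and 35.2 CPM in the fish oil libraries (log2 fold change -0.90 ± 0.0867, adjusted p = 7.41e-05). Both kept their groups well apart, with the lowest control library at least 1.5-fold above the highest fish oil library. Irak3, an inhibitor of Toll-like and interleukin 1 receptor signalling, fell by 1.06 ± 0.117 (adjusted p = 0.000225). F3, the tissue factor that starts blood coagulation, fell by 1.26 ± 0.144 (adjusted p = 0.00028). Fbxo31, the substrate receptor of a ubiquitin ligase, fell by 0.75 ± 0.0786 (adjusted p = 0.000127), and Zhx3, a zinc finger and homeobox repressor, by 0.85 ± 0.101 (adjusted p = 0.000352). The steepest fall among named genes was in Cyp2b10, a cytochrome P450 of the metabolism of foreign compounds, from 5.00, 6.70 and 5.71 CPM to 0.855, 1.99 and 0.969 CPM (log2 fold change -2.17 ± 0.284, adjusted p = 0.000631). Adap2, a GTPase-activating protein, Spsb1, an adaptor of a ubiquitin ligase, and Rab27a, a small GTPase of secretion, had log2 fold changes of -1.10, -1.14 and -1.15. Apex2, a DNA repair nuclease, and Cnnm2, a magnesium transporter, had -0.82 and -0.80.

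Fewer genes outside muscle rose as far. Cish, a cytokine-induced inhibitor of JAK-STAT signalling, was at 6.59, 5.901 and 9.24 CPM in control libraries and at 22.4, 17.8 and 15.02 CPM in fish oil libraries (log2 fold change 1.38 ± 0.177, adjusted p = 0.000568). Each fish oil library exceeded every control library by more than 1.5-fold. Angpt1, the ligand of the endothelial receptor Tie2, went from 10.8, 10.1 and 11.3 CPM in the control libraries to 22.9, 20.9 and 24.5 CPM in the fish oil libraries (log2 fold change 1.09 ± 0.108, adjusted p = 7.54e-05), again with no overlap. Zfp395, a zinc finger gene, rose by 0.94 ± 0.0934 (adjusted p = 7.54e-05) and Shprh, a helicase and ubiquitin ligase of DNA repair, by 0.61 ± 0.07501 (adjusted p = 0.000457). Tenm4, a teneurin of cell adhesion, Caprin2, an RNA-binding protein, and Kansl1l rose by 0.75, 0.81 and 0.60. Etl4, Pde4dip, Lgals4 and Amn1 rose by 0.50, 0.66, 0.63 and 0.53. Pde4dip and Amn1 are among the rises whose level correlated above 0.9 with the mean of the muscle fibre list described below (0.946 and 0.903). That correlation takes both diets together, so part of it is the diet difference itself.

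The thermogenic genes were examined first by function. Ucp1 was at 3021, 2767 and 2169 CPM in control libraries and at 1732, 1609 and 1199 CPM in fish oil libraries (log2 fold change -0.81 ± 0.122, adjusted p = 0.00165). All 3 fish oil libraries lay below all 3 control libraries, and replicate 3 was the lowest of each group. Dio2, the deiodinase that makes active thyroid hormone within brown fat, went from 291, 224 and 252 CPM in the control libraries to 156, 105 and 84.6 CPM in the fish oil libraries (log2 fold change -1.14 ± 0.1605, adjusted p = 0.00104). Gk, the glycerol kinase of brown fat, was at 318, 292 and 174 CPM in control libraries and at 147, 142 and 94.1 CPM in fish oil libraries (log2 fold change -1.03 ± 0.184, adjusted p = 0.00539), with control library 3 closest to the fish oil group. Of the 29 tested members of the thermogenesis list, 6 fell and none rose, with a median log2 fold change of -0.10 against 0.00 over all genes tested. The other 3 that fell were the asparaginase gene Aspg (-1.67), the coactivator gene Ppargc1b (-0.38, passing in 1 of 6 leave-out fits) and Elovl3, an elongase of very long chain fatty acids, whose libraries overlapped (-1.93, 2 of 6). Cidea, a lipid droplet protein that marks brown fat, did not pass (667, 701 and 773 CPM against 779, 738 and 809.8 CPM, adjusted p = 0.374), nor did Ppargc1a (184, 162 and 130.3 CPM against 189.8, 145 and 129 CPM, adjusted p = 0.918).

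The transcription factors of the brown lineage moved in both directions. Of 30 tested, 3 rose and 5 fell, with a median of 0.00, and with total counts 6 rose and 5 fell, with a median of 0.06. Cebpb, which drives early adipogenesis and responds to cyclic AMP, was at 98.8, 109.7 and 98.2 CPM in control libraries and at 64.8, 66.9 and 51.2 CPM in fish oil libraries (log2 fold change -0.74 ± 0.0925, adjusted p = 0.000459). Zbtb20, a zinc finger repressor, was at 528, 481 and 564 CPM in control libraries and at 352, 351 and 355 CPM in fish oil libraries (log2 fold change -0.57 ± 0.0663, adjusted p = 0.000304). In both, every fish oil library lay below every control library. Klf15, Tle3 and Nrip1, a Krüppel-like factor and 2 corepressors, fell by 0.53, 0.46 and 0.41 (Nrip1 in 5 of 6 leave-out fits). Ebf2, which selects brown over white fat genes, rose by 0.39 ± 0.0811 (adjusted p = 0.0129, 5 of 6), Thra, a thyroid hormone receptor, by 0.34 (3 of 6) and Esrrg, an oestrogen-related receptor, by 0.42 (1 of 6). None of the 3 rises passed without control library 1. Prdm16, the coregulator that sets brown against muscle fate, had 17.8, 18.9 and 17.02 CPM against 21.7, 19.3 and 14.3 CPM (adjusted p = 0.881), and Pparg, the master regulator of fat cells, 171, 168 and 181 CPM against 138, 160.2 and 154 CPM (adjusted p = 0.145). Prdm16 overlapped between the groups, and Pparg was lower in each fish oil library without passing the test.

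**Figure D2:**
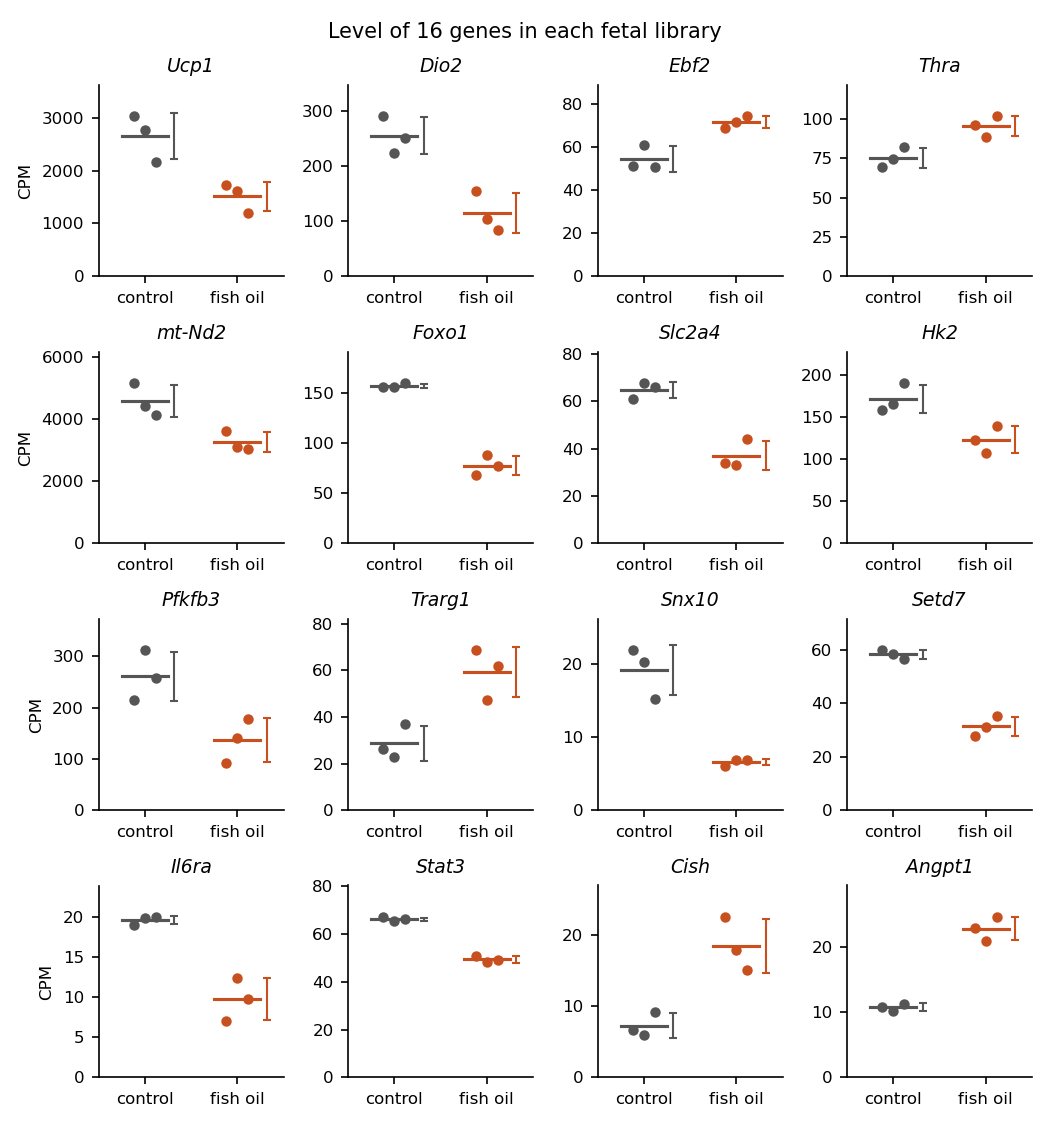
Level in CPM (y axis, linear from 0) of 16 named genes in each of the 3 control and 3 fish oil libraries, with points for libraries, horizontal lines for group means and bars for the SD. The groups do not overlap for any of the 16, and Ucp1, Dio2, Foxo1 and Slc2a4 are lower while Ebf2, Thra, Trarg1, Cish and Angpt1 are higher with fish oil.

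Most tested transcripts for mitochondrially encoded proteins fell, and no tested nuclear gene of the respiratory chain passed. Of 13 genes for mitochondrially encoded proteins 8 had enough counts to be tested. Of these 8, 6 fell and none rose, with a median of -0.30 (-0.23 with total counts as scaling). The calls numbered 3 to 6 in the leave-out fits, lowest without fish oil library 2. mt-Nd2, a core subunit of complex I, was at 5142, 4432 and 4135 CPM in control libraries and at 3620.5, 3111 and 3028 CPM in fish oil libraries (log2 fold change -0.49 ± 0.0792, adjusted p = 0.00268). mt-Nd1 and mt-Nd3, subunits of the same complex, fell by 0.43 and 0.56, while mt-Nd4, mt-Cytb and mt-Nd5 fell by 0.38, 0.22 and 0.21 and passed in 5, 4 and 1 of 6. Twnk, the helicase that replicates mitochondrial DNA, fell by 0.61 ± 0.107 (adjusted p = 0.00469). Of 75 nuclear genes of oxidative phosphorylation 0 passed in edgeR, DESeq2 or limma-voom, 8 had an unadjusted p under 0.05, and their median was -0.03 (0.03 with total counts). In the tricarboxylic acid cycle and pyruvate entry list, 21 of 23 genes had a negative value, but the 3 that passed were small and unstable: Dlat and Pdhb, subunits of pyruvate dehydrogenase, and Mpc2, of the pyruvate carrier, fell by 0.25, 0.25 and 0.27. None of these 3 passed with total counts as scaling, and the list kept 0 or 1 call in the leave-out fits. Of 31 genes of fatty acid oxidation 1 rose (Crat, carnitine acetyltransferase, by 0.29, 1 of 6) and none fell.

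Genes of glucose uptake and glycolysis moved in both directions, with 6 rises and 7 falls among 33 tested. Slc2a4, which encodes the insulin-regulated glucose transporter GLUT4, was at 60.8, 67.5 and 65.99 CPM in control libraries and at 33.8, 33.2 and 44.1 CPM in fish oil libraries (log2 fold change -0.82 ± 0.0994, adjusted p = 0.000434), and Hk2, the hexokinase of insulin-sensitive tissue, at 159, 165 and 189.8 CPM in control libraries and at 123, 107 and 139 CPM in fish oil libraries (log2 fold change -0.48 ± 0.0928, adjusted p = 0.00866). In both genes all fish oil libraries were lower. Pfkfb3, which makes the allosteric activator of phosphofructokinase, went from 215, 311 and 257 CPM in the control libraries to 92.1, 141 and 177 CPM in the fish oil libraries (log2 fold change -0.94 ± 0.175, adjusted p = 0.00716), with a wide spread inside both groups. Slc2a3, a second glucose transporter gene, fell by 1.05, Pfkfb1 by 0.66 and Gbe1, the branching enzyme of glycogen, by 0.39. Trarg1, a protein of the vesicles that carry GLUT4 to the surface, rose from 26.1, 22.9 and 37.1 CPM to 68.5, 47.3 and 61.7 CPM (log2 fold change 1.05 ± 0.155, adjusted p = 0.00145), opposite to Slc2a4. The other 5 that rose were Pfkm, by 0.74, and Pgam2, Eno3, Pygm and Pygb, by 1.25, 0.95, 0.71 and 0.43, each of the last 4 in 2 of 6 leave-out fits. The rises numbered 2 without control library 2 or fish oil library 3 and 3 without fish oil library 2. Pfkm, Pgam2, Eno3 and Pygm are the muscle forms of glycolytic enzymes, and the summed muscle fibre level described below moved with them; its part in these rises was not tested.

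Pck1, the phosphoenolpyruvate carboxykinase of glyceroneogenesis, had the lowest adjusted p of the genes named here. It was at 935, 1197 and 1130.0 CPM in control libraries and at 2642, 2149.8 and 2662 CPM in fish oil libraries (log2 fold change 1.19 ± 0.0921, adjusted p = 1.02e-05), so that the lowest fish oil library was well above the highest control. The enzymes on the glycolytic side of glycerol 3-phosphate fell instead: Gpd1, which makes it from dihydroxyacetone phosphate, by 0.37 ± 0.0677 (adjusted p = 0.00576) and the mitochondrial Gpd2, which returns it, by 0.63 ± 0.0832 (adjusted p = 0.000675). Among 28 tested targets of PPAR receptors 5 rose and 2 fell, and 2 rose without fish oil library 2 and 3 without control library 1. Of the 28, 12 had a positive and 16 a negative value, with a median of -0.04 (0.02 with total counts as scaling). Angptl4, a secreted inhibitor of lipoprotein lipase, was at 111, 117 and 103 CPM in control libraries and at 179.9, 153 and 171 CPM in fish oil libraries (log2 fold change 0.61 ± 0.0767, adjusted p = 0.000495). The others that rose were Pck1, Pdk4, the kinase that shuts pyruvate dehydrogenase (by 0.31, 4 of 6), Aqp7, the glycerol channel of fat cells (by 0.37, 3 of 6), and Txnip, an arrestin that limits glucose uptake (by 0.24, 2 of 6). On the droplet, Plin1, the coat protein that guards stored fat, rose from 218, 226 and 174 CPM in the control libraries to 317, 264 and 317 CPM in the fish oil libraries (log2 fold change 0.54 ± 0.0964, adjusted p = 0.00564), while Abhd5, which activates the lipase, fell by 0.45 (5 of 6) and the lipase gene Pnpla2 by 0.20 (in none of 6). The receptor genes themselves differed: Ppard was at 22.9, 23.02 and 23.6 CPM in control libraries and at 13.4, 14.5 and 14.8 CPM in fish oil libraries (log2 fold change -0.70 ± 0.0953, adjusted p = 0.000732), and Ppara overlapped between the groups (49.97, 59.1 and 70.5 CPM against 74.4, 57.8 and 59.2 CPM, adjusted p = 0.738). Ffar4, a surface receptor for long chain fatty acids including those of fish oil, had 5.34, 3.21 and 2.698 CPM against 3.298, 2.92 and 3.004 CPM and did not pass (adjusted p = 0.66). Mfsd2a, a transporter of lysophosphatidylcholine that carries docosahexaenoic acid, went from 6.81, 7.14 and 4.67 CPM in the control libraries to 3.05, 1.73 and 0.388 CPM in the fish oil libraries (log2 fold change -1.74 ± 0.365, adjusted p = 0.0138, 3 of 6), and DESeq2 did not call it.

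Around insulin and growth factor signalling the largest value was that of Foxo1. Of 45 tested genes 3 rose and 4 fell, with a median of -0.03; 1 rose without control library 1 and 2 fell without fish oil library 2. With total counts as scaling the balance turned, with 5 higher, 2 lower and a median of 0.03. Akt2, the insulin-responsive kinase, rose by 0.36 (5 of 6), the TOR inhibitor gene Deptor by 0.38 (5 of 6) and Igf2r, which clears IGF2, by 0.35 (3 of 6). Pik3r1, the regulatory subunit of phosphoinositide 3-kinase, fell by 0.34 (5 of 6), Igfbp4 by 0.36 (4 of 6) and Socs2, a brake on growth hormone signalling, by 0.71 (2 of 6). Igf1 and Igf2 overlapped between the groups, at 62.5, 69.6 and 61.5 CPM against 64.4, 66.3 and 89.8 CPM and 18.1, 19.6 and 21.9 CPM against 17.96, 24.1 and 27.6 CPM (adjusted p = 0.426 and 0.464).

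Amino acid metabolism moved in a single direction among the genes that passed. Of 41 tested 8 fell and none rose, with a median of -0.19. The falls numbered 5 without control library 1, control library 2, fish oil library 2 or fish oil library 3, and 11 without either of the others. Prodh, which starts the breakdown of proline, was at 14.9, 18.4 and 20.4 CPM in control libraries and at 5.13, 6.98 and 6.201 CPM in fish oil libraries (log2 fold change -1.56 ± 0.153, adjusted p = 7.54e-05). Every fish oil library was below 7 CPM and every control library above 14 CPM. Aspg fell by 1.67 ± 0.251 (adjusted p = 0.00159), Glul, glutamine synthetase, from 529, 568 and 679 CPM in the control libraries to 339.6, 437 and 436 CPM in the fish oil libraries (log2 fold change -0.55 ± 0.101, adjusted p = 0.00657), and Mat2a, which makes S-adenosylmethionine, by 0.49. Cth and Asl, of cysteine and arginine synthesis, fell by 1.08 and 0.73 and passed in 3 and 4 of 6. Nampt, the enzyme that recycles nicotinamide to NAD, went from 647, 579 and 644 CPM in the control libraries to 396, 423 and 452 CPM in the fish oil libraries (log2 fold change -0.56 ± 0.0683, adjusted p = 0.000457).

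The antioxidant genes that passed were all lower with fish oil. Srxn1, which repairs oxidised peroxiredoxins, was at 15.6, 14.1 and 10.4 CPM in control libraries and at 4.58, 6.78 and 5.23 CPM in fish oil libraries (log2 fold change -1.27 ± 0.181, adjusted p = 0.00123). Gclm, the modifier subunit of the enzyme that starts glutathione synthesis, was at 31.01, 25.7 and 23.3 CPM in control libraries and at 17.4, 18.3 and 15.4 CPM in fish oil libraries (log2 fold change -0.63 ± 0.113, adjusted p = 0.0055), and G6pdx, which supplies NADPH through the pentose phosphate pathway, at 25.8, 24.99 and 20.9 CPM in control libraries and at 11.7, 12.1 and 12.9 CPM in fish oil libraries (log2 fold change -0.97 ± 0.109, adjusted p = 0.000244). In all 3 genes the lowest control library was above the highest fish oil library. Txnrd1, thioredoxin reductase, fell by 0.37 (3 of 6), Gclc, the catalytic partner of Gclm, by 0.58 (2 of 6) and Me1, malic enzyme, by 0.37 (in none of 6). Of 37 tested members 6 fell and none rose, with a median of -0.12 (-0.06 with total counts as scaling); 3 calls were left without control library 1 or control library 2.

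Many antioxidant genes carry the antioxidant response element, the site of the factor Nfe2l2, so the promoters of the genes that fell are shown. The sequences are from RefSeq (GRCm38.p6), run from 250 bases before the transcription start to 50 after it, and have matches to TGACNNNGC, searched on both strands, in capitals.
Srxn1, chr2:152105274-152105573 (forward strand): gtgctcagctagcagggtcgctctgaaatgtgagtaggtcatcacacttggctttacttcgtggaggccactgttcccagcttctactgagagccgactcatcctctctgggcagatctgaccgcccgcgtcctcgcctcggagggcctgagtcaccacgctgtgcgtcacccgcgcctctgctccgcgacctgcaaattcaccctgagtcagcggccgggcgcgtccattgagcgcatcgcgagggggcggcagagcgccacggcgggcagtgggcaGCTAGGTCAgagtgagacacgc
Gclm, chr3:122245307-122245606 (forward strand): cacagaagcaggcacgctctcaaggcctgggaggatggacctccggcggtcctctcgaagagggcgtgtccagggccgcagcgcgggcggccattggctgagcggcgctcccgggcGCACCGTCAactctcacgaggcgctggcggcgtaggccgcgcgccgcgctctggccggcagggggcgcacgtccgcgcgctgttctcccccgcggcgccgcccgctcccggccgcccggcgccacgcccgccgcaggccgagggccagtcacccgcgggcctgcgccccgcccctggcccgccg
G6pdx, chrX:74428831-74429130 (reverse strand): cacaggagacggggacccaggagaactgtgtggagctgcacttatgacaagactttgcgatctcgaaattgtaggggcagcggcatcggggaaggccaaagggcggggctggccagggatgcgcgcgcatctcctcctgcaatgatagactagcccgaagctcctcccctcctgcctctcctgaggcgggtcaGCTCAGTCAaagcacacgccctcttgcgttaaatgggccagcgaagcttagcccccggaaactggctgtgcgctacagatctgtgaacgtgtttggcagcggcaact
Txnrd1, chr10:82858956-82859255 (forward strand): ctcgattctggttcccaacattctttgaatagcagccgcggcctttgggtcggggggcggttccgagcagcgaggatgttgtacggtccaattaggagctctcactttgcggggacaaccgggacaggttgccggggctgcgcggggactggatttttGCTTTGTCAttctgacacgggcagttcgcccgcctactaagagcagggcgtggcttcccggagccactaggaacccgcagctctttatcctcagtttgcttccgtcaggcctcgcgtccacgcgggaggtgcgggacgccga
Me1, chr9:86695865-86696164 (reverse strand): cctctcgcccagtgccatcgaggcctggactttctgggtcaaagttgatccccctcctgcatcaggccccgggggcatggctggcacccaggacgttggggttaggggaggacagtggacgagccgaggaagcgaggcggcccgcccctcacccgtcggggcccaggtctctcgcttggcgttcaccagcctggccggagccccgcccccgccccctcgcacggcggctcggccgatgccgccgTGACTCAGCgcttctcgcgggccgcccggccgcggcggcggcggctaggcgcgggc
All 5 genes that fell and had a promoter in the table held the motif in at least 1 promoter, as did 7 of 27 list members that did not pass and 16.7% of all tested genes with a promoter. It was found in 12.4% of all 32851 promoters listed. Txnrd1 is listed with 3 promoters and Me1 with 2, which gives them more bases to match, and the gene of Nfe2l2 itself did not pass the test.

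**Figure D3:**
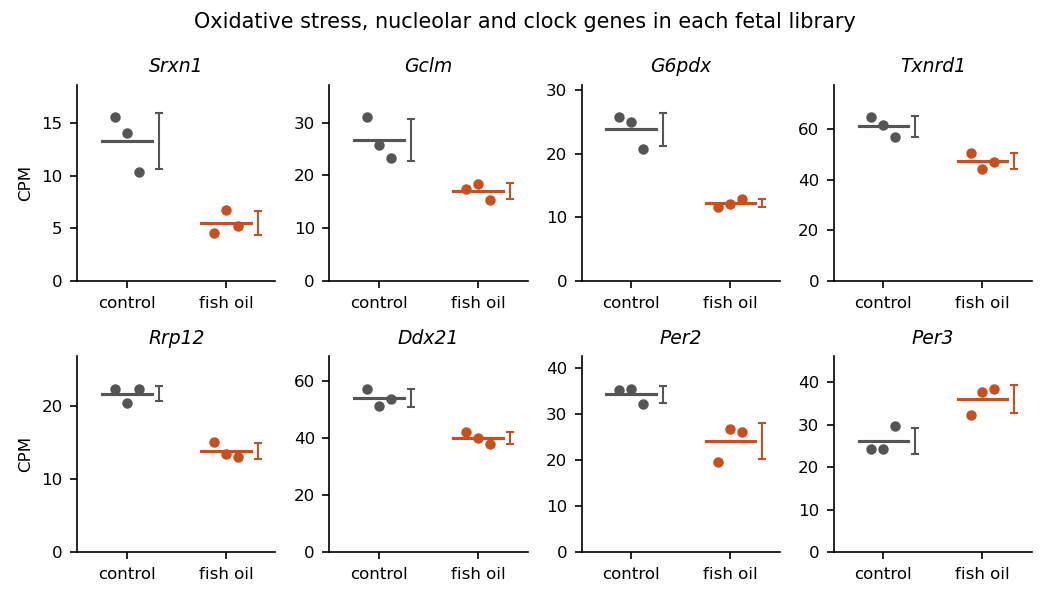
Level in CPM (y axis, linear from 0) of 4 antioxidant genes, 2 nucleolar genes and 2 clock genes in each control and fish oil library, with points for libraries, horizontal lines for group means and bars for the SD. Srxn1, Gclm, G6pdx, Txnrd1, Rrp12, Ddx21 and Per2 are lower and Per3 is higher in every fish oil library.

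Genes of ribosome assembly in the nucleolus had mostly small negative values. This list and those of interleukin 6 signalling and of purine metabolism were written after the values had been seen, so their counts only describe. Of 136 tested genes 12 fell and none rose, 104 had a negative value, and the median was -0.12 (-0.06 with total counts as scaling, where 8 fell). Without control library 2 the falls numbered 6, and without control library 1 or fish oil library 2 they numbered 7. Rrp12, an export factor of both ribosomal subunits, was at 22.4, 20.5 and 22.3 CPM in control libraries and at 15.1, 13.5 and 13.1 CPM in fish oil libraries (log2 fold change -0.63 ± 0.103, adjusted p = 0.00278). Mphosph10, Bysl and Ftsj3, processing factors of ribosomal RNA, fell by 0.63, 0.61 and 0.58, and the helicase gene Ddx21 by 0.43. Polr1a, the largest subunit of RNA polymerase I, and its factor Ubtf fell by 0.37 and 0.30, passing in 2 and 1 of 6. Myc, a transcription factor that promotes ribosome production, fell by 0.74 ± 0.154 (adjusted p = 0.0129, 4 of 6). Of 73 genes of cytosolic ribosomal proteins 0 passed in edgeR, DESeq2 or limma-voom and 5 had an unadjusted p under 0.05, with a median of 0.03. In purine and pyrimidine metabolism 7 of 58 genes fell, 3 with total counts, 2 without control library 2 and 4 without control library 1, control library 3, fish oil library 2 or fish oil library 3, and 1 rose. Gmpr, which turns GMP back to IMP, was at 109, 82.5 and 96.9 CPM in control libraries and at 49.7, 45.3 and 18.1 CPM in fish oil libraries (log2 fold change -1.32 ± 0.227, adjusted p = 0.00429), and Gda, guanine deaminase, fell by 0.85 ± 0.109 (adjusted p = 0.000551).

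Among genes of interleukin 6 and JAK-STAT signalling, some receptors fell and others did not pass. Il6ra, the interleukin 6 receptor, was at 18.97, 19.9 and 19.9 CPM in control libraries and at 7.08, 12.4 and 9.79 CPM in fish oil libraries (log2 fold change -1.01 ± 0.159, adjusted p = 0.00237), and Lifr, the leukaemia inhibitory factor receptor, at 256, 225 and 247 CPM in control libraries and at 153, 181 and 188 CPM in fish oil libraries (log2 fold change -0.48 ± 0.0819, adjusted p = 0.00386). Stat3, the factor both activate, was at 66.9, 65.6 and 66.2 CPM in control libraries and at 50.8, 48.2 and 49.1 CPM in fish oil libraries (log2 fold change -0.42 ± 0.06705, adjusted p = 0.00237), with little spread in either group. Osmr, the oncostatin M receptor, Stat5a and the kinase gene Pim1 fell by 0.48, 0.53 and 0.47, passing in 3, 1 and 1 of 6. Of 46 tested genes 7 fell and 1 rose, and the falls numbered 3 without control library 3 and 4 without control library 1, without fish oil library 2 or with total counts. The median was -0.03 (0.03 with total counts), and 21 values were positive. Il6st, the receptor chain shared by the family, was at 119.7, 122 and 133 CPM against 113, 126 and 124 CPM (log2 fold change -0.04 ± 0.0723, adjusted p = 0.817), and Il11ra1 and Cntfr, receptors for other members, had 0.15 and 0.47 and did not pass. The gene that rose was Cish, whose promoter is shown because it holds 2 STAT sites, TTCNNNGAA on either strand, in capitals (RefSeq, GRCm38.p6).
Cish, chr9:107296409-107296708 (forward strand): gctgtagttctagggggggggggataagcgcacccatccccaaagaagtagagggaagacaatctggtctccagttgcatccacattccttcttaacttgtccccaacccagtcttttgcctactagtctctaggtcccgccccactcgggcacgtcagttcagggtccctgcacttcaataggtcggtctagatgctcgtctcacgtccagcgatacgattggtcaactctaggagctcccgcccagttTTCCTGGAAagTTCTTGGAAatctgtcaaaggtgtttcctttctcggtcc
Such a site was found in 8.3% of all promoters listed, and none of the 6 genes that fell and had a promoter held it. Of 29 list members that had a promoter and did not pass, 5 held it, among them Bcl6 with 3 matches. In the wider list of interferon and cytokine response 5 of 56 genes fell, all of which (Il6ra, Socs2, Lifr, Osmr and Stat3) stand in the list above, and 3 rose, Cish, Ifit2 (by 0.60, 2 of 6) and Ddx58 (by 0.41, 1 of 6), the last 2 being antiviral response genes.

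Of 52 genes of nuclear receptors and thyroid hormone 2 rose and 5 fell, and with total counts as scaling 4 rose and 5 fell. Without control library 1 or fish oil library 3 none rose. Klf9, a Krüppel-like factor induced by thyroid and steroid hormones, was at 354, 332 and 362 CPM in control libraries and at 176, 247 and 203 CPM in fish oil libraries (log2 fold change -0.74 ± 0.0965, adjusted p = 0.000592), and also stands among the targets of glucocorticoids. Hr, a corepressor of the thyroid hormone receptor, fell by 2.08 ± 0.339 (adjusted p = 0.00295) from 2.84, 2.19 and 3.63 CPM to 0.855, 0.598 and 0.484 CPM. Every fish oil library was below every control library in both genes. Among 22 tested clock genes 6 fell and 1 rose, but 1 to 5 fell in the leave-out fits, lowest without control library 2, and 3 fell with total counts. Tef, a PAR bZIP output factor, fell by 0.48 ± 0.0893 (adjusted p = 0.00742). Per2, a repressor of the clock, was at 35.3, 35.6 and 32.3 CPM in control libraries and at 19.7, 26.7 and 26.3 CPM in fish oil libraries (log2 fold change -0.51 ± 0.1100, adjusted p = 0.0154, 4 of 6), whereas Per3 went the other way, from 24.4, 24.4 and 29.7 CPM in the control libraries to 32.4, 37.6 and 38.5 CPM in the fish oil libraries (log2 fold change 0.47 ± 0.1002, adjusted p = 0.0157, 3 of 6). Usp2, Arntl, Npas2 and Cry1 fell by 0.77, 0.42, 0.63 and 0.47, and passed in 4, 2, 1 and 0 of 6. The hour of collection is not given in the labels.

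Signalling through G proteins and growth factor receptors changed in single genes. Grk3, a kinase that desensitises G protein-coupled receptors, was at 32.03, 32.3 and 24.6 CPM in control libraries and at 16.6, 13.4 and 11.6 CPM in fish oil libraries (log2 fold change -1.08 ± 0.134, adjusted p = 0.000459). Adcy3, an adenylyl cyclase, fell by 0.90 (3 of 6) with most of the difference in fish oil library 3, and DESeq2 did not call it. Akap1, which anchors protein kinase A at mitochondria, rose by 0.54 ± 0.0813 (adjusted p = 0.00159), and of 71 tested genes of this list 2 rose and 3 fell. Among 60 genes of FGF and MAPK signalling 7 fell and 2 rose, Erbb4 and Fgf10, in 2 and 0 of 6 leave-out fits. Fgfr2, a receptor of fibroblast growth factors, fell by 0.54, the kinase gene Map3k6 by 0.69, Fosl2, a partner of Jun, by 0.50 and Rasd1, a small GTPase, by 1.82. Id2, an inhibitor of bHLH factors and a target of BMP signals, was the single gene called of 49 in BMP and TGF-beta signalling and fell from 15.7, 13.4 and 13.8 CPM in the control libraries to 7.88, 6.51 and 5.62 CPM in the fish oil libraries (log2 fold change -1.07 ± 0.146, adjusted p = 0.000736). In the Wnt list 2 of 36 rose: the coreceptor gene Lrp6, by 0.55 ± 0.0877 (adjusted p = 0.00237), and Lgr6, a receptor of R-spondins, by 0.34 (5 of 6). Of 32 Notch and Hedgehog genes 0 passed in edgeR, DESeq2 or limma-voom, and 9 had an unadjusted p under 0.05.

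Self-digestion and protein turnover genes fell where they passed. Of 49 genes of autophagy and of the ubiquitin ligases of muscle atrophy 7 fell and none rose, and 3 fell without control library 1. Gabarapl1, an autophagosome protein, was at 59.2, 58.2 and 61.4 CPM in control libraries and at 37.4, 46.5 and 37.01 CPM in fish oil libraries (log2 fold change -0.56 ± 0.08901, adjusted p = 0.00237). Bnip3, a receptor for the removal of mitochondria, fell by 0.36, Lamp2, of the lysosomal membrane, by 0.36 (5 of 6) and Map1lc3b by 0.45 (4 of 6). Trp53inp1, a p53 target that also acts in autophagy, went from 327, 347 and 248 CPM in the control libraries to 106, 199.7 and 172 CPM in the fish oil libraries (log2 fold change -0.95 ± 0.171, adjusted p = 0.00569), and Cdkn1a, the p21 inhibitor of cyclin-dependent kinases, fell by 0.43. Atf5, a factor of the mitochondrial stress response, fell by 0.73 ± 0.1300 (adjusted p = 0.00528).

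Of 26 complement and acute phase genes 2 rose and 1 fell, 18 had a negative value and the median was -0.17. C3, the central complement component, was at 223, 241 and 218 CPM in control libraries and at 301, 309.5 and 346 CPM in fish oil libraries (log2 fold change 0.49 ± 0.07103, adjusted p = 0.00145), and Cd55, which breaks up the convertase that cleaves C3, at 20.2, 17.3 and 21.2 CPM in control libraries and at 31.9, 30.8 and 32.9 CPM in fish oil libraries (log2 fold change 0.71 ± 0.0948, adjusted p = 0.000693). Lama4, the laminin chain of vessel and fat cell basement membranes, rose by 0.45 ± 0.0667 (adjusted p = 0.00154). The gene that fell, the serpin gene Serpina3n, had -1.40 (2 of 6). Both C3 and Cd55 were above the controls in each fish oil library. Of 73 collagen and matrix genes 2 rose and none fell, the other being Agrn, by 0.39 (2 of 6). These calls are 2.74% of that list, against 4.53% of all genes tested. Lox, the enzyme that crosslinks collagen, was at 55.5, 58.1 and 52.2 CPM against 35.1, 37.7 and 45.2 CPM in control and fish oil libraries (log2 fold change -0.50 ± 0.0917, adjusted p = 0.00639). It was among 4 of 52 remodelling genes that fell (1 without control library 2, 2 in the other leave-out fits and 2 with total counts), while the protease gene Adamts9 rose by 0.44 (4 of 6). Ano1, a calcium-activated chloride channel, was at 37.7, 31.4 and 49.3 CPM in control libraries and at 75.1, 57.6 and 71.5 CPM in fish oil libraries (log2 fold change 0.80 ± 0.134, adjusted p = 0.00367), and Slc5a3, a myo-inositol transporter, rose by 0.55 ± 0.0948 (adjusted p = 0.00427).

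Among the lists, that of skeletal muscle fibres held the most rises. Of 66 tested genes of sarcomeres and fibre metabolism 34 rose and none fell, 64 had a positive value and the median was 0.82 (0.88 with total counts as scaling). Groups did not overlap for 44 of them, against 22.6% of all genes. Ttn, the giant spring protein of the sarcomere, was at 1135, 698 and 1061 CPM in control libraries and at 1468, 1835 and 2439 CPM in fish oil libraries (log2 fold change 0.99 ± 0.167, adjusted p = 0.00367). Control library 2 was the lowest and fish oil library 3 the highest. Neb and Acta1, of the thin filament, showed the same order of lowest and highest library (181, 105 and 151 CPM against 206, 270.4 and 355 CPM, and 161, 95.7 and 152 CPM against 189.5, 245 and 316 CPM). Myh7 and Myh2, heavy chains of slow and fast fibres, rose by 1.27 ± 0.243 and 1.60 ± 0.254 (adjusted p = 0.00798 and 0.00237), and Myh3, the embryonic heavy chain, by 1.32 ± 0.271 (adjusted p = 0.0124). Mybpc1, Actn2, Trdn and Myoz2, of the thick filament, Z disc, calcium release site and calcineurin binding, rose by 1.08, 1.07, 1.22 and 1.40. DESeq2 did not call Neb, Acta1, Myh3 or Myh7.

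The whole muscle fibre list summed to 2377, 1508 and 2223 CPM in control and 2902, 3672 and 4854 CPM in fish oil libraries, which is 0.151 to 0.485% of the scaled counts. Genes of developing muscle summed to 737, 582 and 693 CPM and 754, 886 and 1102 CPM, and 3 of 25 rose. The regulators that define muscle precursors were nearly absent: Myod1 had 0 to 4 counts per library and was at 0 in control 2 and fish oil 2, Pax7 had 0 to 4 and was at 0 in control 3, and Myf5 had 0 to 5. Myog had 4 counts in each control library and 12, 10 and 10 in the fish oil libraries, too few to be tested. These counts are not scaled for depth. Library totals were 9496906, 13971209 and 9434710 counts in control and 16263663, 14514751 and 10146103 in fish oil libraries. In bulk tissue a larger share of muscle cells and more of these transcripts per cell cannot be told apart. The number of calls depended on control library 2, since 13 muscle fibre genes rose without it, 19 without fish oil library 2 and 20 without fish oil library 3. DESeq2 called 23. Of the 253 genes that rose, 70 are in the muscle lists or had a log2 level whose correlation with the mean of the fibre list over the 6 libraries was above 0.9, and 33 of these are in neither list. Leaving them out, a setting chosen after seeing the data, left 183 rises. It could not remove a gene that fell, and 23 genes that fell had a correlation below -0.9. Tfrc, Igf2r and Hspd1, named under other functions, were also above 0.9 (0.915, 0.952 and 0.962). The correlation takes both diets together, and the mean of the fibre list was higher in every fish oil library. Any gene that differs by diet therefore correlates with it in part, and a high value does not mark a link to muscle.

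**Figure D4:**
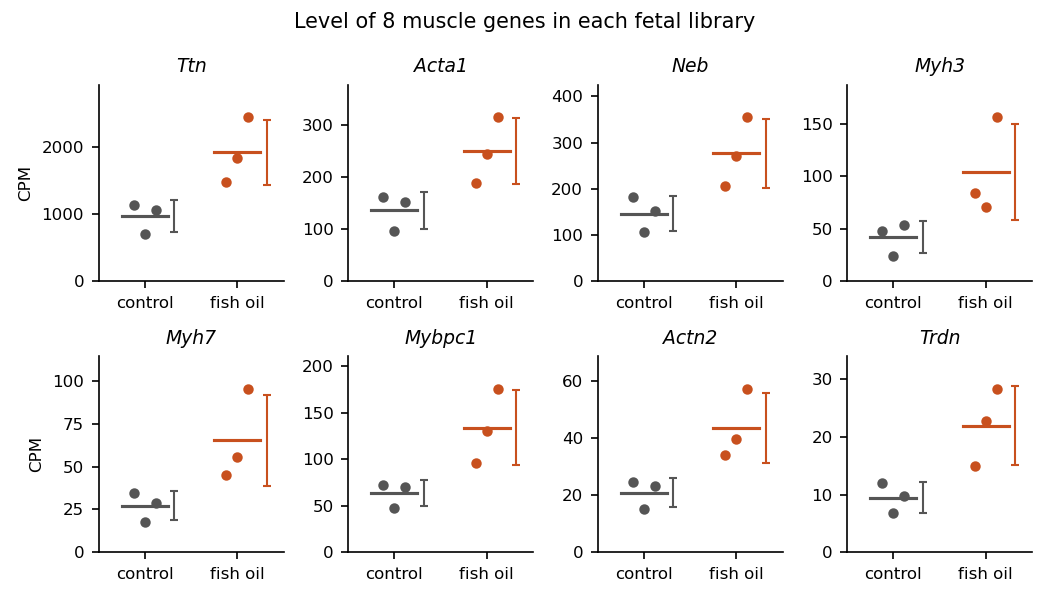
Level in CPM (y axis, linear from 0) of 8 skeletal muscle genes in each control and fish oil library, with points for libraries, horizontal lines for group means and bars for the SD. In all 8 genes control library 2 is the lowest of the 6 and fish oil library 3 is the highest.

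Most imprinted genes that passed rose, beside the muscle genes. Of 28 tested 5 rose and 1 fell, 22 had a positive value and the median was 0.22. H19, a maternally expressed RNA of growing tissues, was at 807, 713 and 834 CPM in control libraries and at 819, 1103 and 1374 CPM in fish oil libraries (log2 fold change 0.49 ± 0.129, adjusted p = 0.046, 1 of 6), with control library 3 above fish oil library 1. Rtl1, a retrotransposon-derived gene expressed from the paternal allele, rose by 1.02 (2 of 6) and Airn, the antisense RNA at Igf2r, by 0.47 (3 of 6). Peg3, a paternally expressed zinc finger gene, fell by 0.40 ± 0.0916 (adjusted p = 0.0215, 3 of 6). None of the 5 rises passed without control library 1 or without control library 2. The summed muscle fibre level was lowest in control library 2 and highest in fish oil library 3, as were H19 and Rtl1, and its part in these rises was not tested.

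Markers of other cell types passed in small numbers, to be read against 4.53% of all genes tested. Among 28 genes of fibroblasts and adipocyte progenitors 2 passed (7.14%), Cd55 higher and F3 lower. Among 14 genes of white adipocytes 2 passed (14.3%), 1 higher and 1 lower. Of 35 endothelial genes none rose and 1 fell, the lymphatic marker Lyve1, from 13.5, 13.8 and 14.3 CPM in the control libraries to 5.07, 8.97 and 10.8 CPM in the fish oil libraries (log2 fold change -0.78 ± 0.199, adjusted p = 0.0378, 1 of 6), and the summed endothelial level was 1421 to 1495 CPM in control and 1298 to 1437 CPM in fish oil libraries. Of 32 macrophage and myeloid genes 0 passed in edgeR, DESeq2 or limma-voom and 11 had an unadjusted p under 0.05, and their sum was 199 to 236 CPM against 178 to 197 CPM. Of 19 erythroid genes 2 rose, mainly the transferrin receptor gene Tfrc, from 293, 304 and 356 CPM in the control libraries to 522, 746 and 901 CPM in the fish oil libraries (log2 fold change 1.19 ± 0.141, adjusted p = 0.000352), which also takes up iron in other cells, while Hba-a1, of haemoglobin, was at 12.9 to 15.2 CPM in all 6. All 13 liver genes had a positive value, 0 passed in any of the 3 tools and 3 had an unadjusted p under 0.05. Without control library 2, 9 of them rose, and 1 did without fish oil library 1 or with total counts as scaling. Alb, of serum albumin, was at 8.97, 63.6 and 8.30 CPM in control and 34.4, 114 and 51.2 CPM in fish oil libraries, so the groups overlapped and replicate 2 was highest in each. Epidermal keratins Krt5 and Krt14 had 0 to 2 counts per library. Sox5, a cartilage factor also expressed in other tissues, rose by 0.73 ± 0.1401 (adjusted p = 0.00857).

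**Figure D5:**
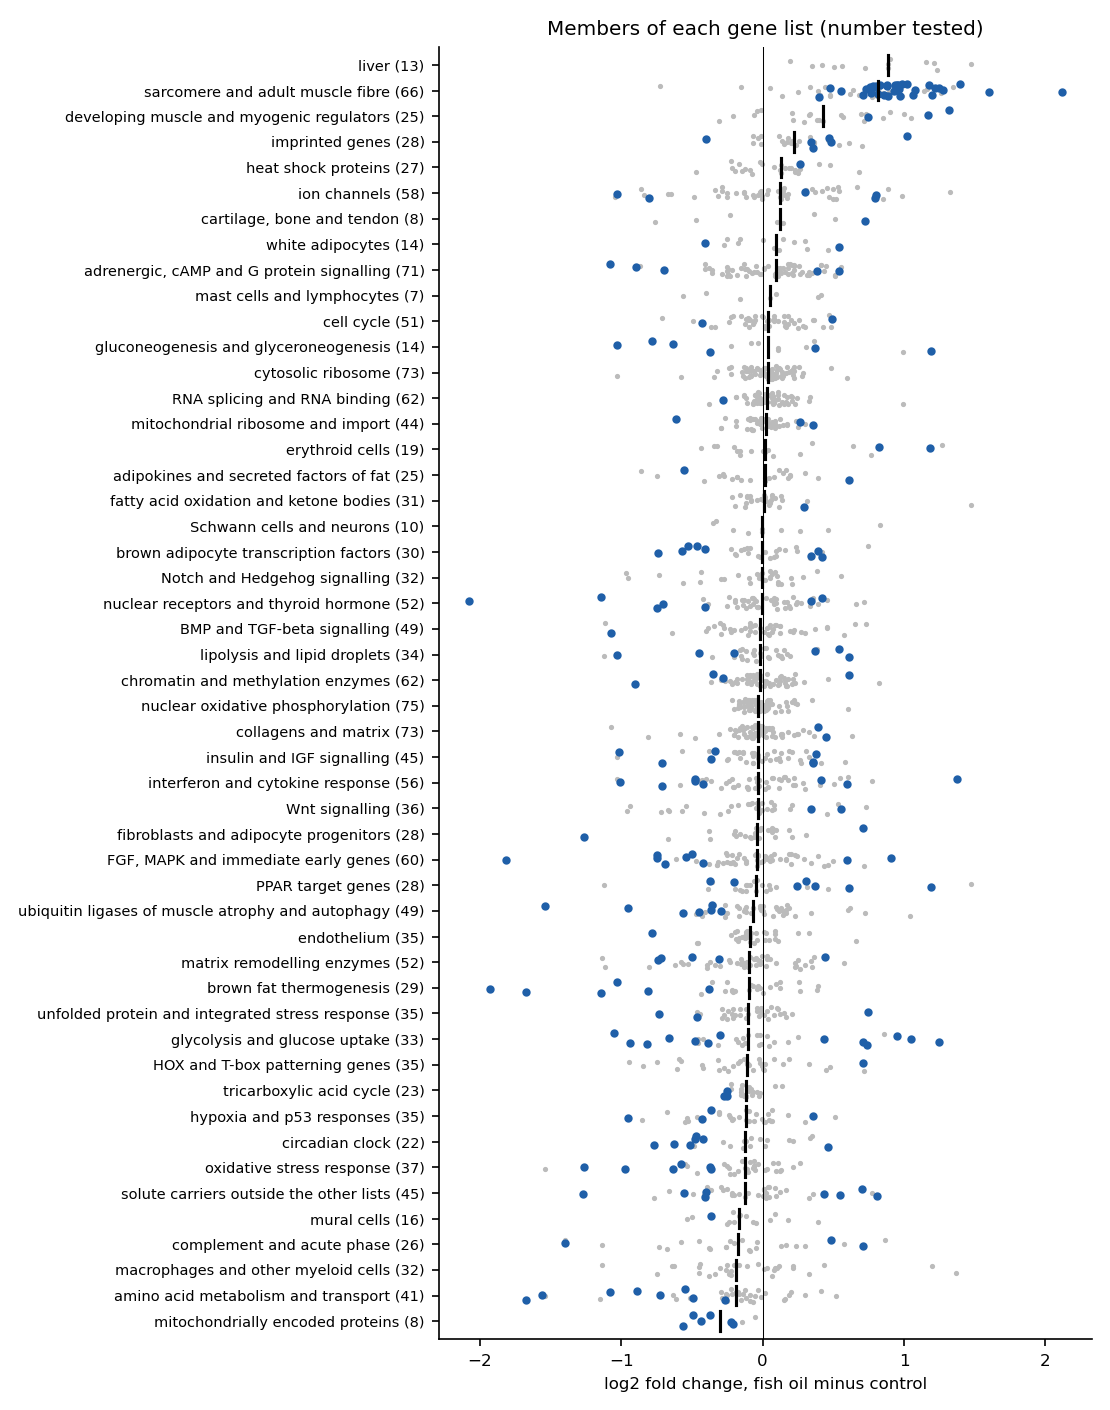
Log2 fold change (fish oil minus control, x axis) of each member of the function and cell type lists with at least 5 tested genes, with blue points for called genes, grey points for the others, a black bar for the median and the number tested in brackets. The lists left aside and those written after the values had been seen are not drawn. The muscle fibre and liver lists have the highest medians, 0.82 and 0.89, but 34 of 66 and none of 13 members were called, and most other medians lie near 0.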

How the data were processed

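RNA from fetal interscapular brown fat was sequenced in 3 libraries per maternal diet. The authors deposited raw counts per Ensembl gene for 55416 genes, unnormalised, in unstranded, forward and reverse columns; the forward column was used, and held 98.96 to 99.55% of the total of the unstranded column. The submitters' processing notes name STAR, Bowtie 0.12.2 and the builds mm8 and mm9, and no annotation is named in those sources. Of the identifiers, 52083 could be given a gene symbol. A quasi-likelihood model was fitted in edgeR 4.0.16 (R 4.3.3) to the 6 libraries, with filterByExpr (13331 genes kept), TMM factors, no covariate and Benjamini-Hochberg adjustment over all genes tested at 0.05, with no fold limit. The procedure was tested on simulated data. The biological coefficient of variation was 8.98%, against 20.6% over all 18 libraries. Replicate libraries differed from each other by more than sampling noise. A count of 3 in a library equals 0.184 to 0.318 CPM, and such limits cover counting error only.

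The members, the 58 gene lists and the tests were chosen with earlier results of these data known, so counts over a list describe it and test nothing. Together the lists have 2531 symbols and 2031 tested genes; members may stand in several lists. Genes named are 18 fixed ones, the 15 highest and 15 lowest log2 fold changes and the 15 lowest adjusted p-values in each direction (non-overlapping, at least 5 CPM in the higher group, with a gene symbol, outside the lists set aside), and up to 6 members per function or cell type list and direction. For the lists of ribosome assembly, interleukin 6 signalling and purine metabolism, written after the values had been seen, the rule takes every member that passed. Not every gene that this rule gives is reported here. Ddx3y, Hba-a1, Cox8b, Alb, Krt5, Krt14, Neb, Acta1, Il6st, Il11ra1 and Cntfr are named outside this rule, after their values were seen. Myf5, Bcl6, Nfe2l2 and mt-Rnr2 are also named outside it. Alternatives were size factors of the DESeq2 kind, total counts, other filters, removal of mitochondrially encoded genes, DESeq2 1.42.0, limma-voom (limma 3.58.1), the unstranded column, all 18 libraries, a replicate block and leaving out each library. Some genes that share reads with near-identical copies or antisense partners may be split by the authors' counting. Promoters came from a RefSeq table of GRCm38.p6, matched by symbol; none was found for Gclc.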

Additional observations from a re-analysis of the deposited data

How the results depend on the processing

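Against 604 calls (253 higher, 351 lower), no filter on low counts gave 936 (449 higher, 487 lower) and all 18 libraries gave 14 (3 higher, 11 lower). Total counts as scaling gave 219 lower and moved the median of all genes by 0.062 on the log2 scale. DESeq2 gave 492 and limma-voom 599. Leaving out a library left 298 to 582 calls, 115 to 262 higher and 183 to 324 lower, with fewest without control replicate 1. Of 211 named genes that passed, between 41 (fish oil replicate 1 left out) and 87 (control replicate 2 left out) lost the call in a leave-out fit, 14 in the unstranded column and 200 with all 18 libraries. Total counts ended 36, among them Bnip3, Cry1, Arntl, Npas2, Dlat, Pdhb, Mpc2, Igfbp4, Pik3r1, Me1, Pnpla2, Osmr, Stat5a, Pim1, Peg3, Polr1a, Ubtf, Ppargc1b, mt-Cytb and mt-Nd5. DESeq2 ended 30, among them Adcy3, Mfsd2a, Myh3, Myh7, Arntl, Cry1, Esrrg, Eno3, H19, Rtl1, Ifit2, Ddx58, Me1, Pim1, Pnpla2, Stat5a and mt-Nd5. Leaving out 1 library, log2 fold changes that had not passed ranged from -0.42 to 0.048 for Ffar4, -0.034 to 0.22 for Ppara, -0.21 to 0.078 for Ppargc1a (0.032 with total counts), -0.081 to 0.19 for Prdm16 and -1.37 to 0.077 for Xist. A fit with the replicate number as a block gave 849 calls (366 higher, 483 lower), 1.41 times as many. Same-numbered libraries of the groups had deviations correlated by 0.07, 0.08 and 0.04, each best with its own number. Pairs with different numbers had -0.0667 to -0.00669. Deviations were taken from the mean of each group of 3, so these negative values follow largely from the positive ones and add no separate evidence. The same-number values are under 0.1, the limit that was set, so samples are treated as sharing only a number. That limit was a choice for a correlation over all genes, and it cannot exclude pairing in single genes. Whether they share a litter or a day was not tested. Depth limits genes near 0.318 CPM, the level of 3 counts in the smallest library.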

Other observations

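Several functions outside the account above held single genes that passed the edgeR test (n = 3 libraries a group; the number in brackets gives the leave-out fits, of 6, in which the gene passed). Among 62 chromatin genes 1 rose, Shprh, and 3 fell (1 with total counts as scaling, which kept Setd7): Setd7, Dot1l, the methyltransferase of a histone core lysine, at 66.3, 66.7 and 66.4 CPM in control libraries and at 52.5, 50.9 and 53.1 CPM in fish oil libraries (log2 fold change -0.35 ± 0.0662, adjusted p = 0.00763; 6), and Tet3, which oxidises methylated cytosine, at -0.28 (0). The libraries of Dot1l were tight in both groups and did not overlap. In the unfolded protein and integrated stress response list 1 of 35 genes rose and 2 fell. Ddit3, a stress-induced factor that favours cell death, was at 3.75, 4.23 and 5.71 CPM in control libraries and at 6.72, 7.84 and 8.53 CPM in fish oil libraries (log2 fold change 0.75 ± 0.186, adjusted p = 0.0337; 2), opposite to Atf5 and to Herpud1 (-0.47; 2). Hspd1, the mitochondrial chaperonin, was the single gene called of 27 heat shock genes (0.27; 1). In the cell cycle list Cdk6 rose by 0.49 (3) and Cdkn1a fell, of 51 tested.

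Transporters split evenly, with 4 of 45 rising and 4 falling. Slc16a7, a monocarboxylate transporter, was at 16.5, 14.1 and 17.7 CPM in control libraries and at 31.6, 21.7 and 24.3 CPM in fish oil libraries (log2 fold change 0.70 ± 0.138, adjusted p = 0.00961; 5), and Slc25a42, which brings coenzyme A into mitochondria, rose by 0.43 (4). Slc25a33, a mitochondrial pyrimidine nucleotide carrier, fell from 20.9, 19.9 and 20.03 CPM in the control libraries to 13.1, 14.8 and 13.3 CPM in the fish oil libraries (log2 fold change -0.56 ± 0.101, adjusted p = 0.00604; 6). Every fish oil library was above the controls for Slc16a7 and below them for Slc25a33. Slc12a2, a sodium, potassium and chloride cotransporter, fell by 0.40 (2). Of 58 ion channel genes 3 rose, Ano1, the calcium release channel gene Itpr1 (0.30; 1) and its muscle counterpart Ryr1 (0.80; 3), and 2 fell, Cnnm2 and Kcnd3 (-1.03; 0).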
